A study of Mus musculus with 7 samples.

Results

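Fatty acid oxidation and PPAR alpha target genes were followed in mouse liver RNA. The set held 38 genes, chosen by their symbol among the 33887 gene symbols of the expression tables, and each of the 38 had 1 row there. They were split by role into regulators and secreted factors (4), uptake, binding and activation (4), the carnitine shuttle (3), mitochondrial beta-oxidation (10), peroxisomal oxidation, import and division (7), acyl-CoA thioesterases (4), microsomal omega-oxidation (3), a ketogenic step (1), and fuel selection with coenzyme A turnover (2). RNA of C57BL/6 liver had been sequenced in 7 libraries. The WT group (2 libraries) was wild type, and the SunTag group (2) carried a SunTag-dCas9 knock-in, in which a Cas9 without cutting activity is joined to a peptide array that gathers effector proteins. Myod1_active (1 library, with no replicate) was labelled as having Myod1 activated, and Myod1_control (2) was its control. By the description of the design both Myod1 groups are SunTag-dCas9 mice too, so the knock-in is shared by every group except WT. Age, sex and feeding state of the mice, the promoter of the knock-in, how Myod1 was activated, what the controls received and whether animals were pooled are not given in the sources used here. Values are FPKM, fragments scaled to transcript length and library size.

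PPAR alpha, the product of Ppara, is a nuclear receptor that binds fatty acids and pairs with a retinoid X receptor on DNA. In liver it is known for keeping up the genes that take in, activate and burn fatty acids, above all in fasting. Long-chain fatty acids are joined to coenzyme A, enter mitochondria through the carnitine shuttle and are shortened there by beta-oxidation, and the acetyl-CoA formed can leave the liver as ketone bodies. Very long chains are first shortened in peroxisomes, and enzymes of the Cyp4a family oxidise the far (omega) end of the chain in the endoplasmic reticulum.

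The element that PPAR alpha and its partner are known to bind is named DR1, 2 copies of AGGTCA in the same direction with 1 base between them. It was searched on both strands of promoter windows from RefSeq (GRCm38.p6, 250 bases before to 50 after a gene's start), of which 30 of the 38 genes had at least 1. Angptl4, Acaa2, Decr1, Abcd2, Hsd17b4, Cyp4a10, Cyp4a14 and Vnn1 had no window and were not searched. No window of these genes held the element without a mismatch, against 0.0481% of the 27025 symbols in the table. With up to 1 mismatch at the 12 fixed positions it was found for 1 of 30 (3.33%, against 0.644% of all symbols), and with up to 2 for 5 of 30 (16.7%, against 4.40%). The matches are shown here because these genes did not move alike. Capitals mark the match, and each sequence reads 5′ to 3′ on the strand given.
Fabp1 (chr6:71199804-71199832, minus strand, 1 mismatch): tcagatatAGGCCATAGGTCAgtgattgt
Creb3l3 (chr10:81092780-81092808, minus strand, 2 mismatches): ctgtaagtAGGGGAGAGGTCAcacagacc
Slc25a20 (chr9:108662134-108662162, plus strand, 2 mismatches): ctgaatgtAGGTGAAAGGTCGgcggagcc
Cd36 (chr5:17835939-17835967, plus strand, 2 mismatches): atccaagtAAGTCAGAGGCCAgagaacca
Acot4 (chr12:84038358-84038386, minus strand, 2 mismatches): gcacagacCGGCCAAAGGTCAtgcttcgg
The match of Fabp1 lay 67 to 55 bases before the start and that of Slc25a20 lay 6 to 18 bases after it. In the comparison of Myod1_control with SunTag described further on, Creb3l3 and Slc25a20 rose, while Fabp1, Cd36 and Acot4 did not pass the test. A match in a window is a description of its letters and not of binding, and no match says only that the letters are not in that window.

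The 7 libraries differed in more than their labels. Myod1 was at 3.52 FPKM in the Myod1_active library and listed at 0 in every other library. Xist was at 56.9 to 82.2 FPKM in the WT and SunTag libraries and no higher than 0.324 in the Myod1 libraries, while the Y-linked Eif2s3y was at no more than 0.531 in the former and at 30.3 to 37.3 in the latter. Sex and experiment therefore cannot be told apart between the SunTag and the Myod1_control livers. Defining hepatocyte genes were high in all 7 libraries (Alb, serum albumin, from 28500 to 54093 FPKM), which checks the tissue label. Read totals were unknown. The width of the deposited intervals over 3959 genes placed the relative depth of the libraries between 0.942 and 1.09. The make-up of the FPKM total differed more. mt-Ts1 alone took 26.3% to 33.4% of it in WT and SunTag and 5.80% to 8.32% in the Myod1 libraries. Genes under 300 bp took 49.7% to 57.9% and 40.5% to 45.4%. SunTag replicate 1 stood apart from the other 3 libraries of its experiment, with the lowest Cyp4a14, Cyp4a10 and Aldh3a2 of all.

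As a group the 38 genes were highly expressed. Their median lay at the percentile 92.2 of the 15744 genes tested, and 18 of them averaged at least 100 FPKM over the libraries. Fabp1, the abundant fatty acid binding protein of the hepatocyte cytosol, was highest with 1299.7 to 3636 FPKM, and Fgf21, a fasting hormone, was lowest with 0.129 to 1.12. All 38 were tested, but Fgf21 reached the filter of 1 FPKM only through Myod1_control replicate 2. The steps differed in how steady they were. Averaged on the log2(FPKM + 1) scale, the 10 mitochondrial genes stayed between 7.06 and 7.31 in all 7 libraries. The 7 peroxisomal genes ranged from 6.05 in SunTag replicate 1 to 7.43 in Myod1_control replicate 2, the 4 thioesterases from 2.76 in Myod1_active to 4.47 in Myod1_control replicate 2, and the 3 microsomal genes from 5.01 in SunTag replicate 1 to 8.65 in Myod1_control replicate 2.

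**Figure D1:**
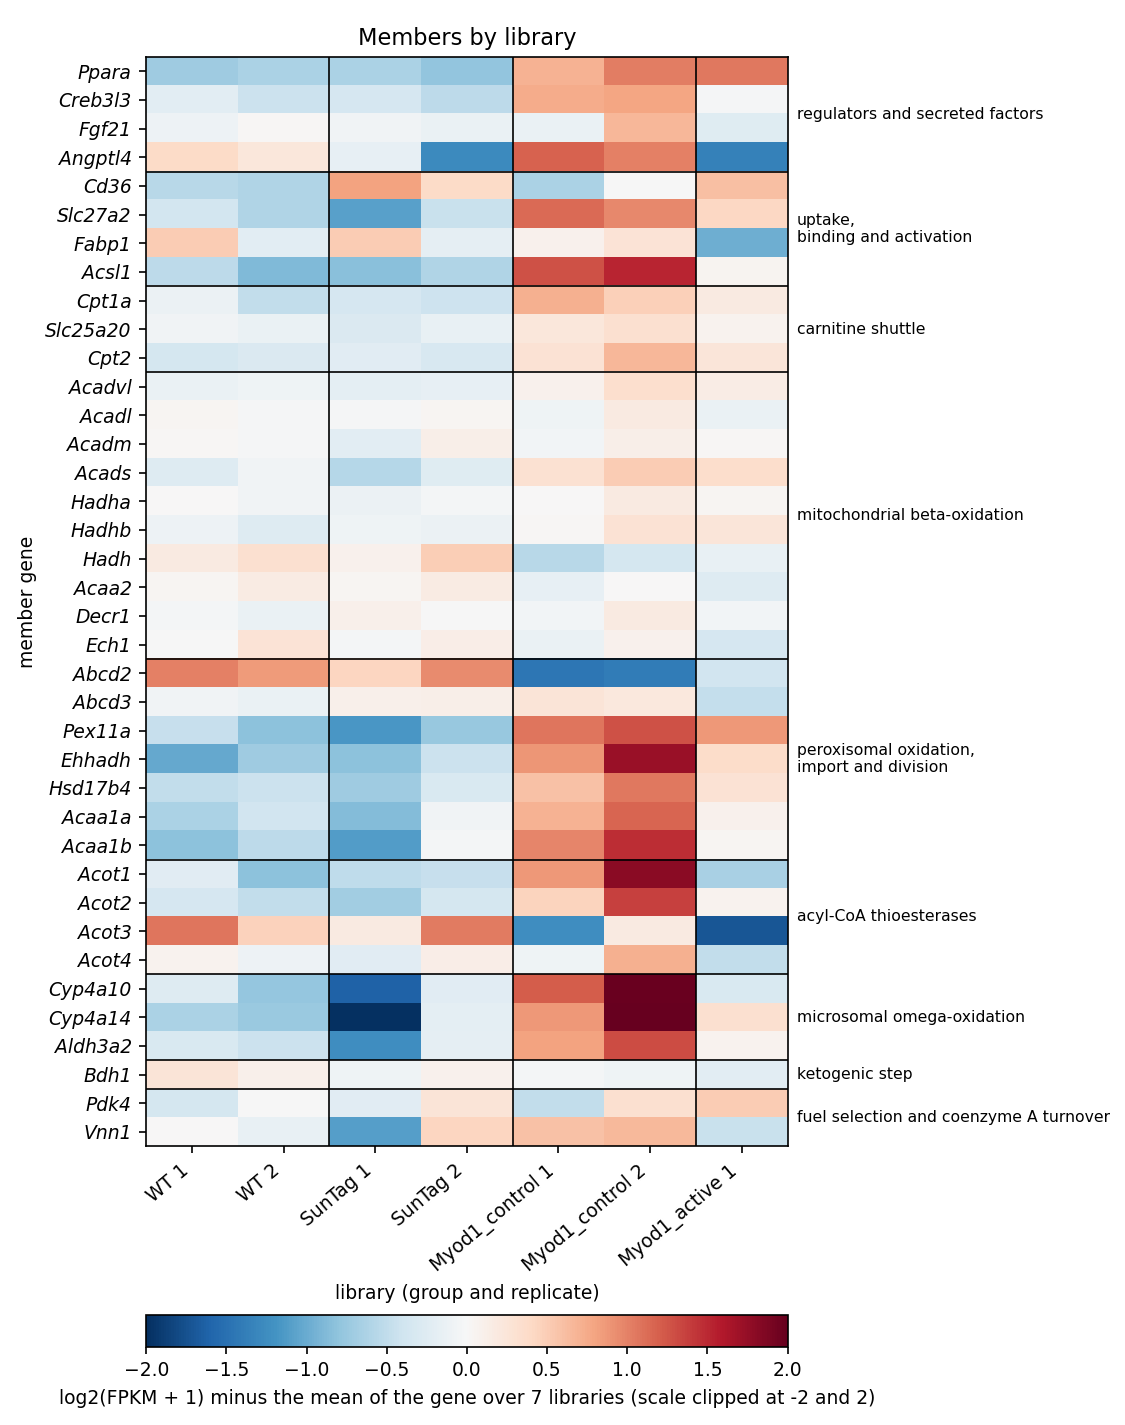
Level of each of the 38 genes (rows, in blocks by role) in each library (columns), as log2(FPKM + 1) minus the gene's own mean over the 7 libraries, with colours clipped at -2 and 2. Peroxisomal and microsomal genes are mostly red in the Myod1_control columns and pale or blue elsewhere, while the mitochondrial block is pale throughout.

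Differences between groups were taken from a limma fit on log2(FPKM + 1) over all genes and are stated after subtraction of that comparison's median gene, with the SE of the fit and its Benjamini-Hochberg adjusted p. The median gene itself shifted by 0.01 for SunTag against WT, 0.25 for Myod1_active against Myod1_control and -0.14 for Myod1_control against SunTag. Fold values are ratios of mean FPKM, without that subtraction and without the added 1, so they differ from the log2 differences beside them. No source says that libraries of a group are separate animals, so a p-value here reflects library-to-library spread, which may be technical.

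In the knock-in compared with wild type, which asks what SunTag-dCas9 alone does to liver expression, none of the 38 genes passed the test (limma adjusted p under 0.05), where 0.127% of all genes did (0.0508% higher and 0.0762% lower). At an unadjusted p under 0.05 there were 2 (1.95% of all genes), Cd36 above WT (0.883%) and Angptl4 below it (1.07%). The SunTag libraries lay apart from the WT libraries for 7 genes, 3 above (13.0% of all genes) and 4 below (12.8% of all genes). At least 1 log2 unit from the median gene lay 1 gene above, Cd36, and 1 below, Angptl4 (1.58% of all genes on either side). The median difference of the 38 was -0.06. It was 0.07 without SunTag replicate 1, when 26 rather than 11 genes lay above the median gene. Outside the 38, all 5 red blood cell markers lay at least 1 log2 unit above the median gene (1.58% of all genes), though none passed. For all 5 both SunTag libraries lay above both WT libraries (13.0% of all genes). Their summed FPKM was 2334 and 2358 in WT and 6389 and 3919 in SunTag. Of 8 cardiac muscle markers tested, 5 were called lower in SunTag (limma adjusted p, lowest 0.00168), where 0.0762% of all genes were. At least 1 log2 unit below the median gene lay 7 of these 8 (1.58% of all genes).

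Between Myod1_active and its controls, the comparison made to find what changes when Myod1 is switched on, again none of the 38 passed (limma adjusted p, lowest 0.152), where 0.254% of all genes did (0.216% higher and 0.0381% lower). At an unadjusted p under 0.05 there were 9, a share near the 19.5% of all genes, with 7 below the controls (2.31% of all genes) and 2 above (17.2% of all genes). With median-ratio scaling there were 22, of which 21 lay below (12.9% of all genes in either direction). The activated library lay below both controls for 28 of the 38 genes, a position that 16.6% of all genes had, and above both for 5 (61.4% of all genes). The median difference of the 38 was -0.72, and 34 of them had a negative difference. A difference of at least 1 log2 unit below the median gene was found for 15 of them (4.02% of all genes), and for 8 of 37 without Myod1_control replicate 2, and as far above it lay none (3.11% of all genes). These 15 included all 4 thioesterases and all 3 microsomal genes, 3 of the 7 peroxisomal genes and none of the 10 mitochondrial genes. With 1 library in the activated arm, the fit takes its spread from the replicated groups.

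The 2 sets of control SunTag-dCas9 livers, Myod1_control and SunTag, were compared as background for the gap between experiments. Of the 38 genes 18 were higher in Myod1_control (7.3% of all genes), 2 were lower (17.0% of all genes, or 24.3% in either direction), and 18 did not pass. The 2 groups lay apart for 24 genes that were higher in Myod1_control (24.9% of all genes) and 4 that were lower (41.6% of all genes). The genes that rose covered all 3 of the carnitine shuttle, 5 of 7 of the peroxisomal group, 3 of 4 regulators and secreted factors, 2 of 4 of uptake and activation, 2 of 4 thioesterases and 2 of 3 of the microsomal group, but 1 of 10 mitochondrial genes. The median difference was 0.76, and 17 genes lay at least 1 log2 unit above the median gene (7.15% of all genes) and 1, Abcd2, as far below it (9.9% of all genes). All 20 calls rest on few libraries. With WT replicate 1, WT replicate 2, Myod1_control replicate 1 or Myod1_control replicate 2 left out none of the genes passed (lowest adjusted p from 0.0652 to 0.0729), and without SunTag replicate 1 there were 7 calls (Abcd2, Acsl1, Angptl4, Creb3l3, Pex11a, Ppara and Slc27a2). At an unadjusted p under 0.05 there were 23 genes with all libraries, 20 higher (13.8% of all genes) and 3 lower (27.9%, or 41.7% in either direction). With 1 of those first 4 libraries left out there were 20 to 23, where 33.0% to 35.9% of all genes were. Over all genes 1149 were called higher and 2683 lower, and 1822 and 1750 with median-ratio scaling, under which 19 of the 38 genes were higher and 1 lower.

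**Figure D2:**
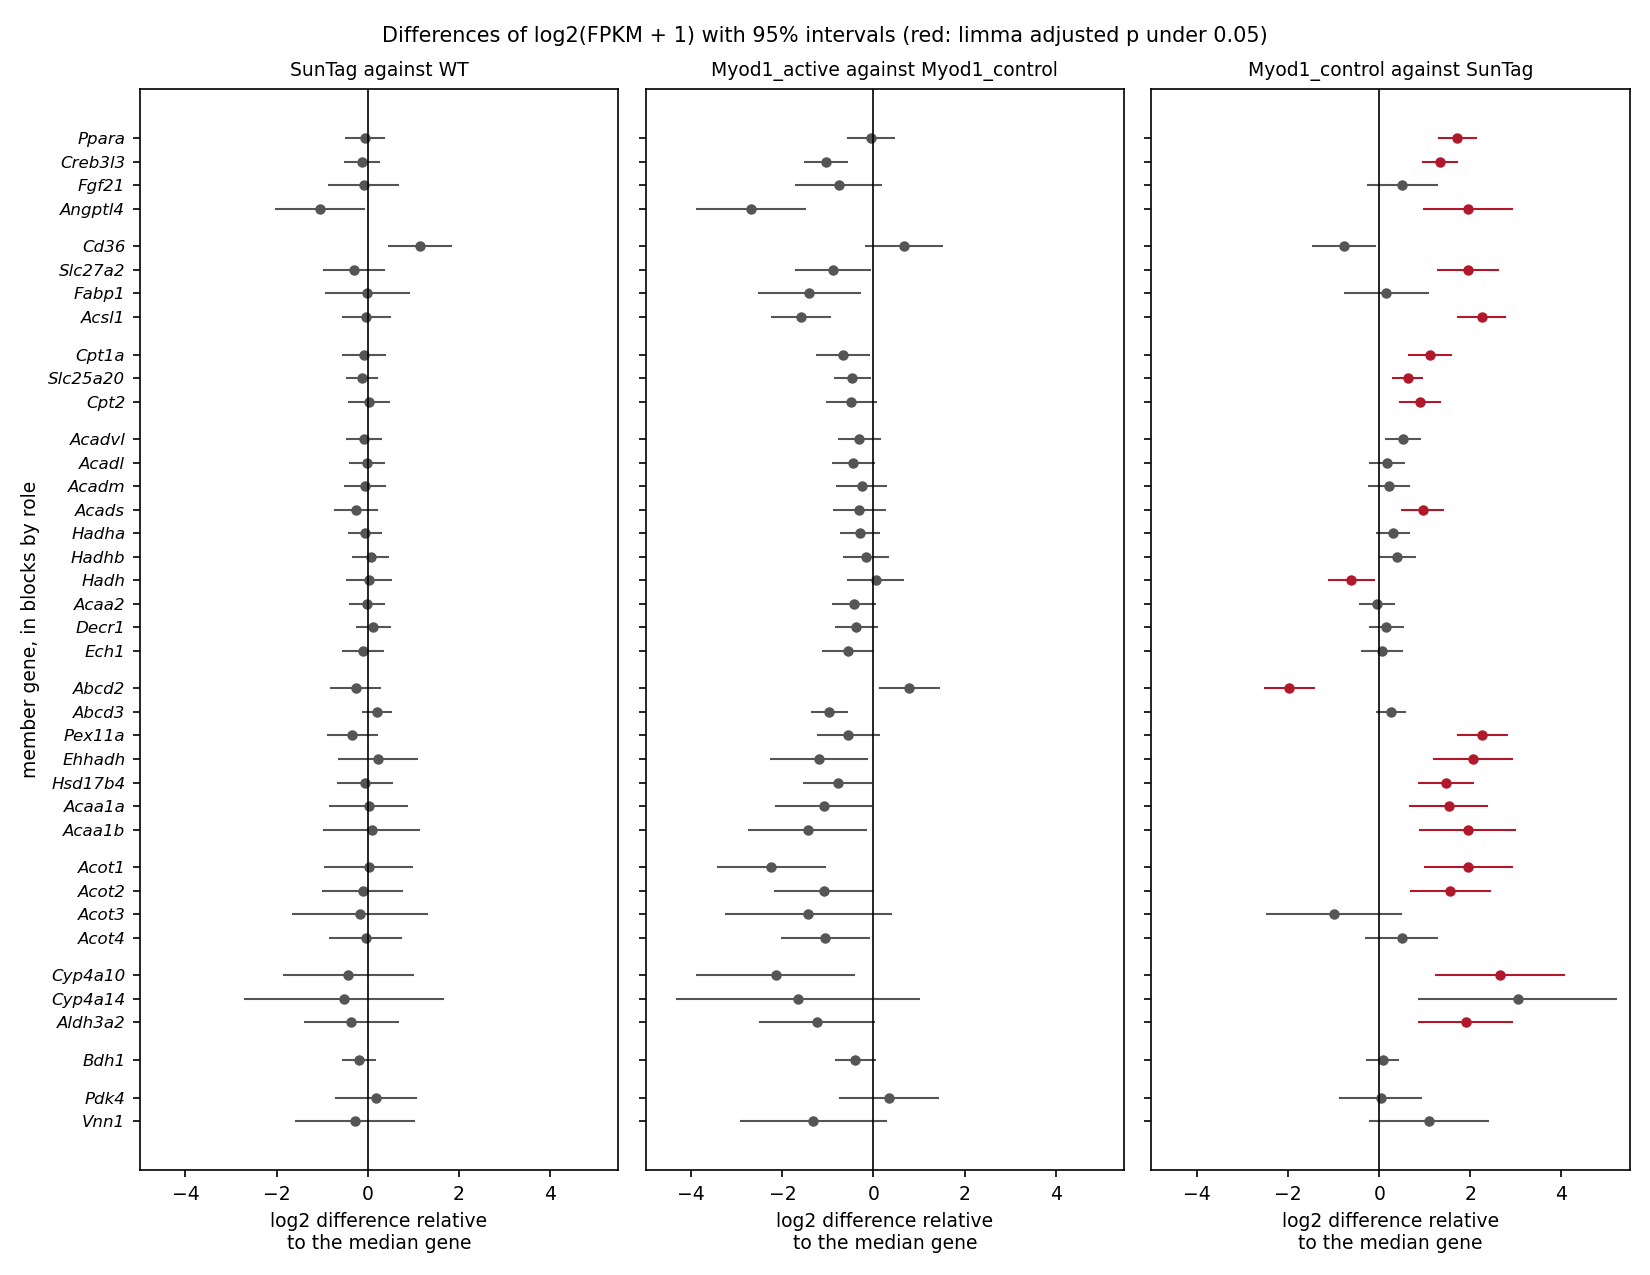
Difference of each gene in the 3 comparisons (panels), in log2(FPKM + 1) relative to the median gene (vertical line at 0), with 95% intervals of the limma fit and genes past an adjusted p of 0.05 in red. The left panel clusters at 0 except for Cd36 and Angptl4, most points of the middle panel lie to the left with none in red, and 18 red points of the right panel lie to the right with Abcd2 and Hadh to the left.

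Among the regulators, the receptor gene rose in the Myod1_control livers. Ppara (ENSMUSG00000022383, mm9 chr15:85565413-85633249) was at 18.5 and 19.6 FPKM in WT, 19.5 and 17.4 in SunTag, 50.9 and 63.5 in Myod1_control and 65.3 in Myod1_active. The 3 libraries of the Myod1 experiment thus lay above all 4 others, and Myod1_control exceeded SunTag by 1.71 (SE 0.159, adjusted p = 0.0151). Creb3l3, a liver transcription factor that works with PPAR alpha in fasting, was at 117 and 101 FPKM in WT, 107 and 94.5 in SunTag, 228 and 235 in Myod1_control and 134 in Myod1_active. It rose between SunTag and Myod1_control by 1.33 (SE 0.146, adjusted p = 0.0176), and the activated library lay 1.04 below the controls (SE 0.179, adjusted p = 0.165).

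The secreted factors were less even between replicates. Angptl4, a secreted inhibitor of lipoprotein lipase, was at 39.8 and 35.4 FPKM in WT, 26.7 and 11.8 in SunTag, 69.6 and 61.3 in Myod1_control and 11.2 in Myod1_active. It rose from SunTag to Myod1_control by 1.95 (SE 0.378, adjusted p = 0.0328). In Myod1_active its FPKM was 5.82-fold below the mean of the controls (log2 difference -2.69, SE 0.462, unadjusted p = 0.00339, adjusted p = 0.155), the lowest value of the 7 libraries. Against WT the SunTag difference was -1.04 (SE 0.378, unadjusted p = 0.0420, adjusted p = 1.0). Fgf21 was at 0.251 and 0.365 FPKM in WT, 0.270 and 0.227 in SunTag, 0.224 and 1.12 in Myod1_control and 0.129 in Myod1_active, and no comparison of it passed.

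In uptake and activation, Acsl1 and Slc27a2, which join fatty acids to coenzyme A, rose between SunTag and Myod1_control, and Fabp1 and Cd36 did not pass. Acsl1 (ENSMUSG00000018796, mm9 chr8:47556395-47621405), the main long-chain acyl-CoA synthetase of liver, was at 269 and 210.3 FPKM in WT, 217 and 256 in SunTag, 939 and 1117 in Myod1_control and 404 in Myod1_active. This was the smallest p of the 38 genes between SunTag and Myod1_control, with a difference of 2.25 (SE 0.199, adjusted p = 0.0145). The mean FPKM, with no median gene subtracted, was 4.35-fold higher in Myod1_control. The activated library lay between the control groups of both experiments, 1.59 below its own controls (SE 0.243, unadjusted p = 0.00281, adjusted p = 0.152). Slc27a2, a transporter that also activates very long chains, was at 313 and 265 FPKM in WT, 189 and 296 in SunTag, 885 and 783 in Myod1_control and 538 in Myod1_active, and rose between SunTag and Myod1_control by 1.94 (SE 0.257, adjusted p = 0.0201).

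Fabp1 was at 3636 and 2208 FPKM in WT, 3623 and 2246 in SunTag, 2707 and 3092 in Myod1_control and 1299.7 in Myod1_active. Replicates of the same group differed as much as the groups did, except that the activated library was lowest (-1.41 against its controls, SE 0.431, unadjusted p = 0.0445, adjusted p = 0.248). Cd36, a fatty acid translocase of the cell surface that macrophages, endothelium and adipocytes also carry, was at 6.09 and 5.87 FPKM in WT, 17.2 and 12.6 in SunTag, 5.73 and 9.41 in Myod1_control and 14.8 in Myod1_active. Both SunTag libraries lay above both WT libraries, by 1.16 (SE 0.263, unadjusted p = 0.00689, adjusted p = 1.0, and 0.304 to 1.0 under the alternatives). Against Myod1_control the SunTag libraries were also higher, with a difference of -0.77 for Myod1_control (SE 0.263, adjusted p = 0.0632), which passed with genes under 300 bp left out. Beside this, the summed FPKM of 8 macrophage markers was 184 and 231 in WT, 294 and 203 in SunTag and 39.9 to 43.6 in the Myod1 experiment, that of 8 endothelial markers 177 to 191 in WT and SunTag, and that of 7 adipocyte markers 1.52 to 2.29 in WT and SunTag and 6.85 to 8.25 in the Myod1 experiment. Of the adipocyte list Adipoq was at no more than 0.0728 FPKM, and the only gene that passed the filter, Adrb3, was higher in Myod1_control (6.596 and 7.65 FPKM against 1.40 and 2.21 in SunTag, adjusted p = 0.0176). The part of such cells in the level of Cd36 was not tested, and in bulk RNA fewer cells of a type and less RNA per cell cannot be told apart.

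All 3 genes of the carnitine shuttle rose moderately between SunTag and Myod1_control. Cpt1a, the rate-limiting transferase of the outer mitochondrial membrane, was at 39.1 and 30.0 FPKM in WT, 33.4 and 31.9 in SunTag, 70.6 and 59.7 in Myod1_control and 48.3 in Myod1_active. Its difference was 1.107 (SE 0.179, adjusted p = 0.0270), with the activated library between the 2 groups. Slc25a20, the carrier of the inner membrane, ranged from 42.9 to 49.7 FPKM in WT and SunTag and was at 61.6 and 66.1 in Myod1_control and 55.1 in Myod1_active (0.62, SE 0.124, adjusted p = 0.0481). Among other settings, this call ended with only the 2 groups in the fit, with a constant prior variance, with the replicate block and without the Myod1_active library. Cpt2, which passes the chain back to coenzyme A inside, ranged from 58.1 to 63.8 FPKM in WT and SunTag and was at 91.2 and 119 in Myod1_control and 88.8 in Myod1_active (0.89, SE 0.170, adjusted p = 0.0383). Its call ended, among other settings, with no filter, with only the 2 groups in the fit and with the replicate block. None of the 3 passed in another comparison.

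**Figure D3:**
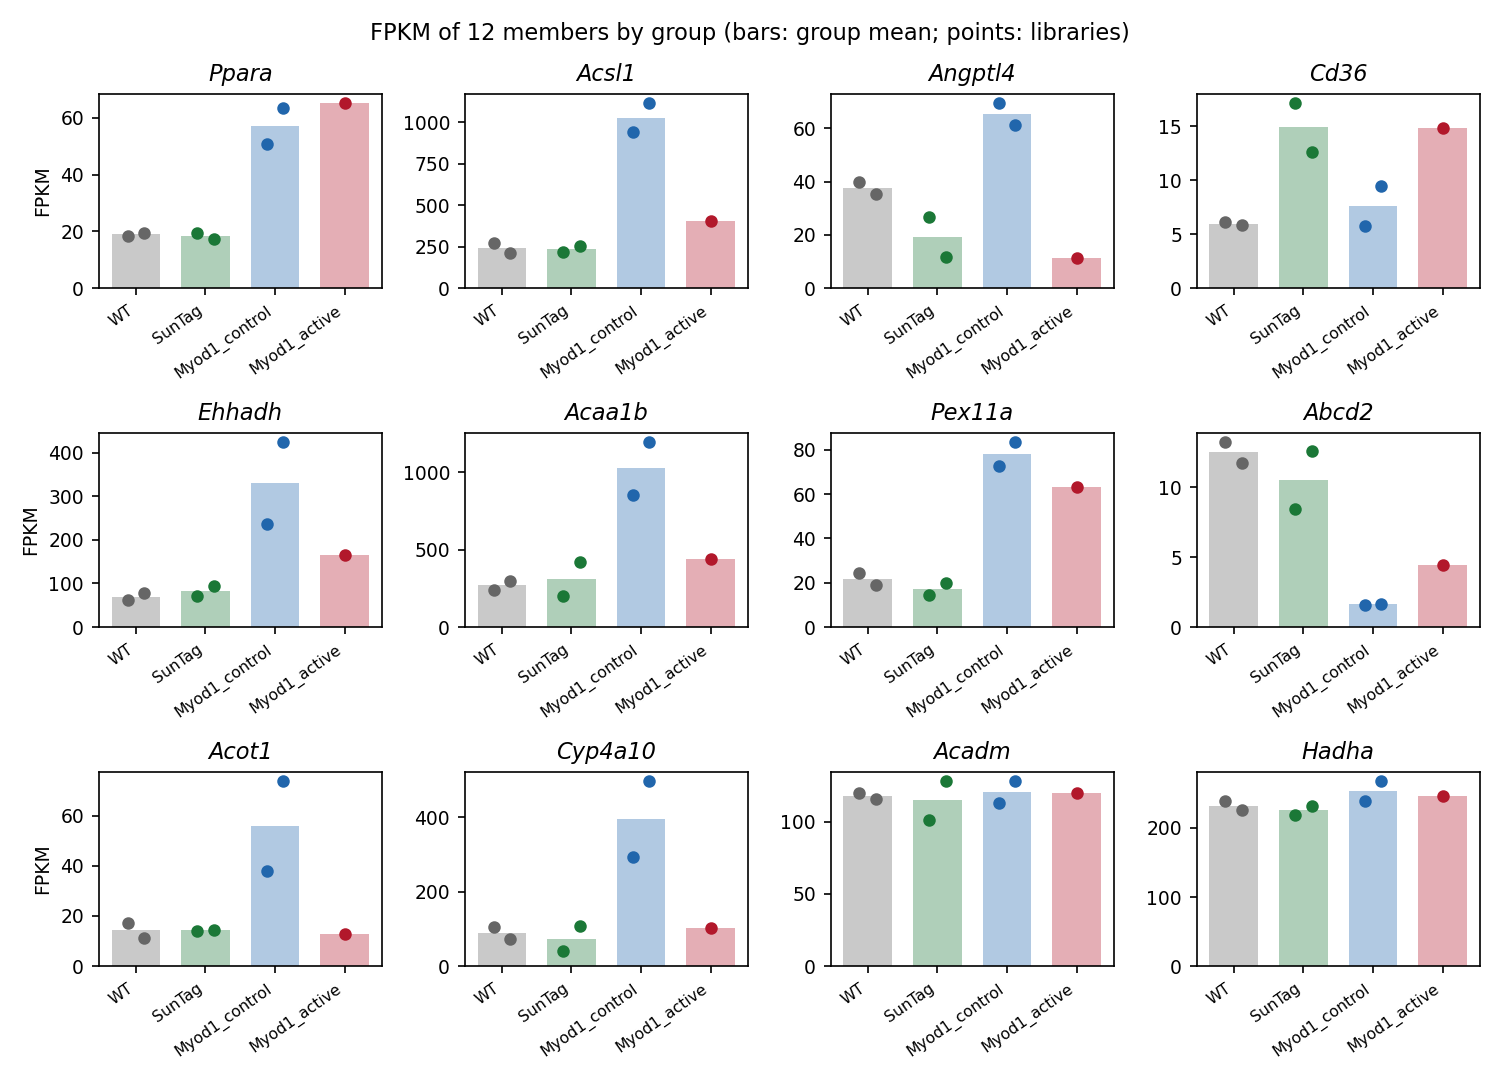
FPKM of 12 of the genes by group, with bars from 0 at the group mean and points for the libraries, of which Myod1_active has 1. Ppara, Acsl1, Ehhadh, Acaa1b, Pex11a, Acot1 and Cyp4a10 are higher in both Myod1_control libraries than in WT and SunTag, Abcd2 is lower there, and Acadm and Hadha stand level in all groups.

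By the average of each role, the enzymes of the mitochondrial spiral were the steadiest of the set. Opposite moves of single genes can cancel in such an average. Acadm, the medium-chain acyl-CoA dehydrogenase, was at 119.8 and 116 FPKM in WT, 101 and 128 in SunTag, 113 and 128 in Myod1_control and 119.5 in Myod1_active. Hadha, the alpha subunit of the trifunctional protein, was at 239 and 226 FPKM in WT, 218 and 232 in SunTag, 239.7 and 268 in Myod1_control and 246 in Myod1_active. Groups overlapped or lay close for both, and the 95% intervals of their Myod1_control against SunTag differences before centring were -0.35 to 0.51 and -0.18 to 0.52. Acadl, Acaa2, Decr1, Ech1, Hadhb and Acadvl likewise did not pass in any of the 3 comparisons, and their differences between SunTag and Myod1_control ran from -0.05 (Acaa2) to 0.53 (Acadvl, adjusted p = 0.106). Acadvl did pass in that comparison with median-ratio scaling, with or without genes under 300 bp, and with quantile normalization. Of the transcript of Hadhb 57.5% and of that of Acadvl 23.5% of the 50-base stretches also occur in another annotated gene, so their level is less certain.

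Acads and Hadh were the exceptions, in opposite directions. Acads, the short-chain dehydrogenase, was at 73.6 and 83.7 FPKM in WT, 59.0 and 74.4 in SunTag, 109 and 126 in Myod1_control and 113 in Myod1_active, and rose between SunTag and Myod1_control by 0.95 (SE 0.177, adjusted p = 0.0355). Hadh, the dehydrogenase of short 3-hydroxyacyl chains, was at 154 and 169 FPKM in WT, 144 and 191 in SunTag, 91.7 and 106 in Myod1_control and 122 in Myod1_active. It fell by 0.61 (SE 0.189, adjusted p = 0.0477), but passed in only 7 of the 18 alternatives run (adjusted p from 0.0286 to 0.234). The call ended with no filter, with only the 2 groups in the fit, with median-ratio scaling (0.111, and also without genes under 300 bp), with quantile normalization (0.234) and when any 1 library other than that of Myod1_active was left out.

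Peroxisomal genes made up the largest block of increases between SunTag and Myod1_control. Pex11a (ENSMUSG00000030545, mm9 chr7:86880843-86888017), which drives the division of peroxisomes, was at 24.4 and 18.9 FPKM in WT, 14.7 and 19.6 in SunTag, 72.4 and 83.6 in Myod1_control and 63.2 in Myod1_active (2.27, SE 0.212, adjusted p = 0.0151). The 3 libraries of the Myod1 experiment all lay above the other 4. Ehhadh, the bifunctional enzyme of the inducible peroxisomal pathway, was at 62.1 and 77.8 FPKM in WT, 72.2 and 94.6 in SunTag, 237 and 425 in Myod1_control and 165 in Myod1_active, a rise of 2.06 (SE 0.332, adjusted p = 0.0247). Hsd17b4, the other bifunctional enzyme, ranged from 95.5 to 127 FPKM in WT and SunTag and was at 238 and 329 in Myod1_control and 193 in Myod1_active (1.47, SE 0.230, adjusted p = 0.0247).

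The peroxisomal thiolases, which make the last cut of each round, followed the same order. Acaa1b was at 242 and 298 FPKM in WT, 198 and 419 in SunTag, 851 and 1196 in Myod1_control and 441 in Myod1_active, a rise of 1.94 from SunTag to Myod1_control (SE 0.407, adjusted p = 0.0382). Acaa1a was at 118 and 139.5 FPKM in WT, 99.7 and 174 in SunTag, 295 and 411 in Myod1_control and 193 in Myod1_active (1.53, SE 0.327, adjusted p = 0.0417). Both SunTag values of each gene spanned the WT values, and the activated library lay between SunTag and Myod1_control. The 2 genes lie near each other on mm9 (chr9:119248794-119259417 and chr9:119057141-119066211), and 35.5% of the 50-base stretches of Acaa1a and 46.2% of those of Acaa1b occur in another gene, mostly in each other, so reads can have been split between them.

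The import proteins of the peroxisome moved differently. Abcd2 (ENSMUSG00000055782, mm9 chr15:90976315-91022238), a transporter of very long acyl chains, was at 13.2 and 11.7 FPKM in WT, 8.43 and 12.6 in SunTag, 1.58 and 1.67 in Myod1_control and 4.40 in Myod1_active. It fell by 1.98 between SunTag and Myod1_control (SE 0.207, adjusted p = 0.0151), a mean FPKM lower by 6.48-fold. The activated library was above its controls by 0.79 (SE 0.253, unadjusted p = 0.00944, adjusted p = 0.170), the opposite side from most of the set. Abcd3, a major ABC transporter of the peroxisome membrane, was at 235 and 226 FPKM in WT, 267 and 268 in SunTag, 296 and 287 in Myod1_control and 177 in Myod1_active. The activated library was lowest, 0.97 below its controls (SE 0.147, unadjusted p = 0.00485, adjusted p = 0.161).

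The acyl-CoA thioesterases, which release free fatty acids from coenzyme A, lie side by side on mm9 chromosome 12 between 85328811 (start of Acot2) and 85400515 (end of Acot3). Acot1, the cytosolic form, was at 17.3 and 11.1 FPKM in WT, 14.1 and 14.6 in SunTag, 38.02 and 74.0 in Myod1_control and 12.6 in Myod1_active. It rose between SunTag and Myod1_control by 1.96 (SE 0.371, adjusted p = 0.0315), while the activated library was within the range of WT, 2.24 below its controls (SE 0.454, unadjusted p = 0.00738, adjusted p = 0.165). Acot2, the mitochondrial form, ranged from 3.12 to 4.24 FPKM in WT and SunTag and was at 8.02 and 16.1 in Myod1_control and 5.97 in Myod1_active (1.56, SE 0.336, adjusted p = 0.0422).

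Acot3, a peroxisomal form, was at 20.2 and 12.9 FPKM in WT, 10.5 and 19.6 in SunTag, 3.29 and 10.5 in Myod1_control and 2.096 in Myod1_active. Its difference between SunTag and Myod1_control was -0.998 (SE 0.572, adjusted p = 0.200), with the sign opposite to that of its 3 neighbours. Acot4, another peroxisomal form, was at 7.65 to 10.1 FPKM in WT and SunTag, 8.52 and 15.5 in Myod1_control and 6.20 in Myod1_active, and did not pass (0.49, SE 0.305, adjusted p = 0.417). Between 14.0% and 32.7% of the 50-base stretches of the 4 transcripts occur in another gene, mostly of the same family, so values within the cluster are uncertain.

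Microsomal omega-oxidation held the 2 largest differences between SunTag and Myod1_control, and the gene with the largest SE of the 38. Cyp4a10 (ENSMUSG00000066072, mm9 chr4:115190869-115206254), a fatty acid omega-hydroxylase and a textbook target of PPAR alpha, was at 105 and 73.5 FPKM in WT, 40.2 and 108 in SunTag, 293 and 498 in Myod1_control and 102 in Myod1_active. It rose between SunTag and Myod1_control by 2.65 (SE 0.545, adjusted p = 0.0353), and the activated library, within the range of WT, was 2.15 below its controls (SE 0.668, unadjusted p = 0.0369, adjusted p = 0.236). Its neighbour Cyp4a14 was at 71.1 and 66.0 FPKM in WT, 23.6 and 96.3 in SunTag, 202 and 659 in Myod1_control and 138 in Myod1_active. With replicates that far apart the difference of 3.04 (SE 0.840, adjusted p = 0.0631) did not pass, although both controls lay above all other libraries. It did pass with genes under 300 bp left out, with the replicate block and without SunTag replicate 2. Aldh3a2, which oxidises the fatty aldehydes formed on the way, was at 62.7 and 57.3 FPKM in WT, 32.2 and 68.7 in SunTag, 136 and 194 in Myod1_control and 81.4 in Myod1_active (1.90, SE 0.395, adjusted p = 0.0376). Against WT the SunTag differences of these 3 genes were -0.42, -0.52 and -0.35 and did not pass, and without SunTag replicate 1 they were 0.30, 0.49 and 0.20. Of the 50-base stretches of Cyp4a10 29.8% occur in Cyp4a31 or Cyp4a32.

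The ketogenic step and the fuel switch did not move past the test in any comparison. Bdh1, which turns acetoacetate into 3-hydroxybutyrate, was at 116 and 104 FPKM in WT, 91.6 and 103 in SunTag, 94.4 and 91.3 in Myod1_control and 84.0 in Myod1_active. Pdk4, a kinase that shuts off pyruvate oxidation in fasting, was at 2.99 and 4.08 FPKM in WT, 3.36 and 5.12 in SunTag, 2.62 and 5.37 in Myod1_control and 6.23 in Myod1_active, with replicates of a group as far apart as groups. Vnn1, a pantetheinase that releases the vitamin part of coenzyme A, was at 5.99 and 5.24 FPKM in WT, 2.24 and 8.37 in SunTag, 9.38 and 9.89 in Myod1_control and 4.09 in Myod1_active (Myod1_control against SunTag 1.08, SE 0.502, adjusted p = 0.219). Under the alternatives that difference ran from 0.31 to 1.84, and it passed only without SunTag replicate 2, which leaves 1 SunTag library.

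Other genes of the same pathways were read from 12 lists of 166 genes, 160 with a row and 158 tested. Between SunTag and Myod1_control 29 rose and 14 fell, where 7.3% of all genes rose and 17.0% fell, shares that also stand beside each list that follows. In the other comparisons none passed (limma adjusted p under 0.05). At an unadjusted p under 0.05 there was 1 for SunTag against WT (1.95% of all genes) and 41 for Myod1_active (19.5% of all genes). In peroxisomal oxidation 4 of 19 rose (Acox2, Acox3, Scp2 and Acot5), and Pecr and Nudt19 fell. Of 14 tested genes of peroxisome assembly Pex19 and Pxmp4 rose and Pxmp2 fell.

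Of the 10 further microsomal genes tested 7 rose and none fell. Cyp4a12a, an omega-hydroxylase known for its expression in male liver, was at 0.0471 and 0.0359 FPKM in WT, 0.288 and 0.111 in SunTag, 166 and 118 in Myod1_control and 83.3 in Myod1_active (7.02, SE 0.201, adjusted p = 0.00112). Cyp4a12b, Cyp4a31, Cyp4a32, Cyp4f13, Cyp4f15 and Por also rose. Cyp4a10 shares 50-base stretches with Cyp4a31 and Cyp4a32, so reads can have been split between these genes. Of the stretches of Cyp4a14 only 0.245% occur in another gene. Shared sequence was not counted for Cyp4a12a and Cyp4a12b. In the control of the carnitine shuttle 4 of 9 rose, among them Slc22a5, the carnitine importer, and Acaca and Acacb, which make the malonyl-CoA that restrains Cpt1a. Of 18 mitochondrial genes Etfdh and Eci2 rose and Etfa and Etfb fell.

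Among 16 receptors, partners and cofactors 4 rose (Ncoa2, Crebbp, Ep300 and Ppargc1a) and Rxrg fell. Rxra, the main retinoid X receptor of liver, was at 86.0 and 79.6 FPKM in WT, 58.4 and 77.5 in SunTag, 100.1 and 92.1 in Myod1_control and 127 in Myod1_active (0.64, SE 0.178, adjusted p = 0.0971). Of 21 other genes known to respond to PPAR alpha 4 rose and 2 fell. Plin2, the coat protein of lipid droplets, was at 208 and 214 FPKM in WT, 205 and 224 in SunTag, 444 and 629 in Myod1_control and 268 in Myod1_active (1.43, SE 0.204, adjusted p = 0.0221). Fitm2, Retsat and Tmem135 also rose, while Ucp2 and Apoc3 fell. In ketogenesis none of 5 rose and 2 fell (Bdh2 and Oxct1). In uptake and activation none of 13 rose, and Fabp4 and Dbi fell.

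Markers of other liver and blood cells moved with the gap between the experiments. The summed FPKM of 5 red blood cell genes was 2334 to 6389 in WT and SunTag and 39.7 to 45.9 in the Myod1 libraries. Of these 5, 4 were called lower in Myod1_control than in SunTag (17.0% of all genes), such as Hbb-b1 (mean 0.319 against 1456 FPKM). Alas2 was called higher (mean 41.2 against 17.8 FPKM, 7.3% of all genes) and makes up most of the sum in the Myod1 libraries. The 8 macrophage markers summed to 184 to 294 against 39.9 to 43.6, the 8 endothelial markers to 177 to 191 against 36.8 to 55.3, and the 6 stellate markers to 88.0 to 167 against 19.7 to 29.4. The 8 hepatocyte markers, the cells in which most of the oxidation genes are active, also summed lower, at 64999 to 77975 against 43875 to 48240. Alb makes up most of that sum, and the single markers went both ways between SunTag and Myod1_control, with 1 called higher and 1 lower and 3 apart in each direction (median -0.13). Cps1, for one, averaged 639 FPKM in SunTag and 1026 in Myod1_control. Of tissues that also burn fatty acids, 10 cardiac markers summed to 52.1 and 55.1 FPKM in WT, 6.07 and 1.65 in SunTag and no more than 0.827 in the Myod1 libraries, where 6 of the 10 were at 0 throughout. The skeletal muscle list summed to 0.267 to 5.77, the kidney list to at most 0.356, the adipocyte list to 1.52 to 8.25, the lymphocyte list to 0.682 to 11.8 and the bile duct list to 16.4 to 80.0. The part of these cells in the 20 calls between SunTag and Myod1_control was not tested. Between Myod1_active and its controls the hepatocyte sum was 43875 against 46551 and 48240, and these 8 markers had a median difference of -0.31, beside -0.72 for the 38 oxidation genes. The 8 endothelial markers had a median of -0.76 in the same comparison, as low as that of the oxidation genes, with all 8 below the median gene, 7 below both controls and 4 at an unadjusted p under 0.05. The macrophage, stellate and red blood cell lists had medians of -0.36, -0.40 and -0.09. The part of these cells in the lower values of Myod1_active was not tested.

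**Figure D4:**
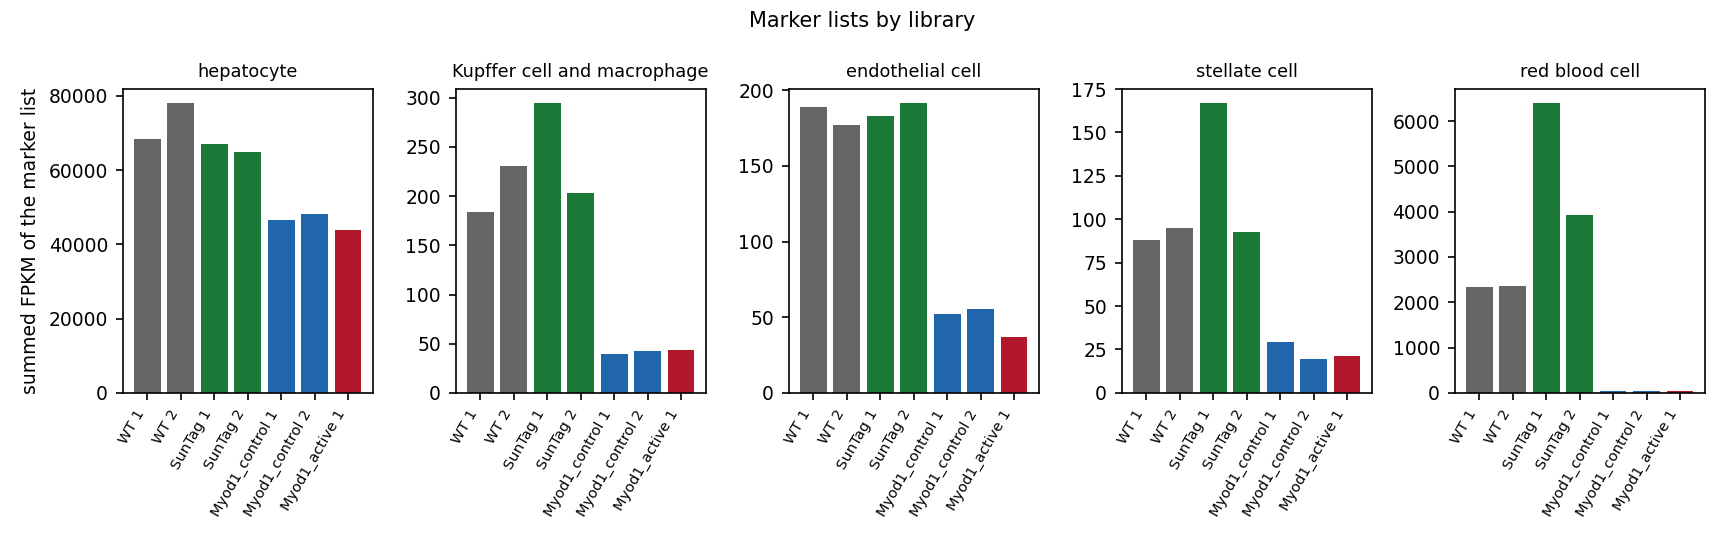
Summed FPKM of 5 marker lists (panels) in each library (bars, coloured by group, axes from 0). Macrophage, endothelial, stellate and red blood cell sums are lower in the 3 libraries of the Myod1 experiment than in the other 4, and the hepatocyte sum falls from at least 64999 to at most 48240.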

How the data were processed

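Total liver RNA (C57BL/6) was isolated with a Direct-zol kit for Illumina sequencing, per the labels. The submitters' processing notes name cutadapt 1.11, TopHat2 2.1.1, Cufflinks 2.2.1 and the mm9 build; settings, annotation, read length and strand use are not given in the sources used here. Values in the authors' deposited tables are FPKM per gene with bounds and a status, per the file headers. Read totals are unknown, so no counting interval was made.

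Rows with a status other than OK in any library (343 of 37468) were left out, rows sharing a symbol were summed (244 symbols), and genes reaching 1 FPKM in at least 1 library were tested (15744). limma 3.58.1 in R 4.3.3 was fitted on log2(FPKM + 1), a scale that understates changes of low genes, with 1 mean per group over all 7 libraries, a variance trend, two-sided tests and Benjamini-Hochberg adjustment over all genes at 0.05. SE, p and intervals come from the fit before the median gene was taken off. The code was tested on simulated data. The members and lists were chosen with earlier results of these data known, and every member is named; pathway genes are named by smallest p per list, with Plin2 and Rxra always; some genes of these pathways are not reported here. Marker lists of muscle, kidney, lymphocyte and bile duct cells were read too. Positions of genes are mm9, counted from 1; promoter windows are RefSeq GRCm38.p6. Sequence shared between genes was counted as 50-base stretches of the GENCODE M21 transcripts. Alternatives were the pseudocount, the filter, 2 scalings, genes under 300 bp, the libraries fitted, the variance prior, a replicate block and leaving out each library.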

Additional observations from a re-analysis of the deposited data

How the results depend on the processing

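For Myod1_control against SunTag, the 20 calls among the 38 genes became 10 with no filter on low values (25634 genes tested) and 3 with only those 2 groups in the fit (Abcd2, Acsl1 and Pex11a). Leaving out a library gave 0 to 19 calls. The calls over all genes fell as well, to 24 higher and 35 lower without WT replicate 1. SunTag against WT and Myod1_active against Myod1_control had 0 calls among the 38 genes under every alternative run. The genes whose SunTag and WT libraries lay apart numbered 7 with all libraries and between 18 and 27 when a library was left out. A lone library overlaps less often by construction, and the share over all genes was not counted in those settings. Samples that share a replicate number were not taken as pairs. The differences between replicates 1 and 2 correlated between groups at 0.0425, 0.0341 and 0.000757 over 15744 genes. With the replicate block 18 genes were called, 17 of them shared with the 20.

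Several differences that had not passed changed sign. For SunTag against WT, leaving out a library gave -0.0611 to 0.448 for Pdk4 (-0.0192 without WT replicate 1), -1.52 to 0.488 for Cyp4a14, -1.12 to 0.296 for Cyp4a10 and -0.891 to 0.196 for Aldh3a2. For Myod1_active against Myod1_control it gave -0.0770 to 0.751 for Pdk4, -0.0609 to 0.158 for Hadh and -0.222 to 0.107 for Ppara. Hadh was also at -0.0121 with a pseudocount of 0.1, -0.0146 with median-ratio scaling and -0.0243 with short genes left out as well, and Ppara at 0.128 with no filter. For Myod1_control against SunTag it gave -0.198 to 0.491 for Fabp1, -0.0187 to 0.145 for Bdh1 and -0.368 to 0.443 for Pdk4 (-0.225 without SunTag replicate 1). With no filter Bdh1 was at -0.0338 and Pdk4 at -0.0775, and with quantile normalization Pdk4 was at -0.0171. The cause was not tested. Depth limits Fgf21 most, the only gene of the 38 under 1 FPKM in any library.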

Other observations

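Genes that follow feeding and fasting were read beside the oxidation genes, since these respond to the same states and the feeding state of the mice is not given in the sources used here. Of 10 tested lipogenic genes 1 rose between SunTag and Myod1_control (Mlxipl, the glucose-sensing factor ChREBP, at 81.3 and 104 FPKM against 216 and 274, limma adjusted p = 0.0225). Of 8 gluconeogenic and fasting genes 2 fell, Fbp1 (1279.7 and 914 against 395 and 359.8 FPKM, adjusted p = 0.0191) and Tat (1582 and 1090.3 against 595 and 685 FPKM, adjusted p = 0.0398). In that comparison the lipogenic list had a median difference of 0.46, with 7 genes above the median gene and 3 below. The gluconeogenic and fasting list had a median of -0.54, with 1 gene above and 7 below. The 38 oxidation genes had 0.76. Between Myod1_active and its controls none of these 18 genes passed. There the lipogenic list had a median difference of 0.68 relative to the median gene, with 7 of 10 genes above both controls (61.4% of all genes), while the 38 oxidation genes had -0.72. The gluconeogenic and fasting list had a median of 0.07, with 5 of 8 genes above both controls and 2 below (16.6% of all genes). Fasn, the fatty acid synthase, was at 673 FPKM against 174 and 379.8. Pck1, the gatekeeper of gluconeogenesis, was the lowest of its list, at 209.7 against 636 and 403. Of 15 tested clock genes Tef rose between SunTag and Myod1_control (10.2 and 9.40 against 16.0 and 18.2 FPKM, adjusted p = 0.0278), and none passed in the other comparisons.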
